A study of Saccharomyces cerevisiae with 23 samples.

Results

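The outermost 20 kb of yeast chromosomes held 3972 of the 152129 nuclear Ty1 insertion sites found after growth in galactose, or 2.61%, and 416 of the 11208 found after growth in dextrose, or 3.71%. Aligned intervals that shared chromosome, strand and 5′ end were counted as 1 site. Members were the sites within 20 kb of either end of the 16 nuclear chromosomes and over 2 kb from any of the 275 nuclear tRNA genes. The right end of chromosome III was left out, so 31 chromosome ends with 615.9 kb of sequence entered, which is 5.10% of the nuclear genome. Before the tRNA rule and this omission, 4995 galactose sites and 454 dextrose sites lay within 20 kb of an end. The members were set beside 64863 galactose sites and 7541 dextrose sites over 2 kb from tRNA genes in the rest of the chromosomes, called the interior here. The interior held 42.6% of the nuclear galactose sites and 67.3% of the nuclear dextrose sites. Shares of all nuclear sites thus depend on how many sites of a library lay near tRNA genes.

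The series comprised 23 samples of Saccharomyces cerevisiae, of which 21 MNase-seq samples were not used here. The other 2 were insertion-profiling libraries of the haploid laboratory strain BY4741 (MATa his3delta1 leu2delta0 ura3delta0 met15delta0) carrying the plasmid pJEF2365. Cells of one library spent 24 h in 2% galactose and cells of the other 24 h in 2% dextrose. Both came from a preculture in 2% raffinose with 0.1% dextrose, and both were later grown in dextrose for 24 h and then passaged through dextrose with 1 mg/mL 5-FOA, which kills cells that keep a working URA3 gene, for 24 h and a further 24 h. The treatment labels name complete medium for the 24 h in the test sugar, and the growth protocol names medium without uracil. There was 1 library per medium, so no difference between media has a replicate check and none was tested. The intervals quoted are exact 95% intervals that cover counting error only, since the reads come from PCR and carry no molecular identifiers. Duplicate reads had been removed before deposit, per the names of the files, so the number of intervals is not a count of cells.

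Ty1 is a retrotransposon that copies itself through RNA and inserts the DNA copy with its integrase. Its main targets lie upstream of genes transcribed by RNA polymerase III, to which the integrase is drawn through the polymerase subunit AC40, and loss of that contact is known to shift insertions toward chromosome ends. Subtelomeres are gene-poor regions next to the telomeric TG repeats, in which X elements, Y′ elements and gene families such as the seripauperins and COS genes occur in several near-identical copies, and parts of them are silenced by the Sir proteins. A read from such a copy cannot be placed on 1 chromosome end, and such reads receive a low mapping quality.

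Over the whole 20 kb the density of sites was close to that of the interior in both libraries. In galactose it was 6.45 sites per kb (6.25 to 6.65) against 6.25 (6.20 to 6.29) in the interior, a ratio of 1.03 (0.9998 to 1.07). In dextrose it was 0.675 sites per kb (0.612 to 0.744) against 0.726 (0.710 to 0.743), a ratio of 0.930 (0.841 to 1.03). Both ratios had counting intervals that included 1. They were sums over very unequal stretches, as the distance from the end, the chromosome end, the annotation and the length of the interval each split them.

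Pooled over the 31 ends, galactose sites were sparser in the outer than in the inner part of the zone, with a local rise in the outermost 1 kb over all intervals. The density was 4.28 sites per kb from 0 to 5 kb, 6.36 from 5 to 10 kb, 7.47 from 10 to 15 kb and 7.69 from 15 to 20 kb. These were 0.686 (0.634 to 0.740), 1.02 (0.954 to 1.08), 1.20 (1.13 to 1.27) and 1.23 (1.16 to 1.30) times the interior density. The outermost step had 5.42 sites per kb (4.63 to 6.30). The rise there differed by class of interval. In steps 1, 2 and 3 full-length intervals had 1.90, 1.87 and 1.90 sites per kb, and those of 50 to 95 bases 2.81, 1.29 and 1.32. With mapping quality 60 alone these steps had 2.97 (2.39 to 3.64), 2.45 (1.93 to 3.07) and 2.71 (2.16 to 3.35). Over all intervals the lowest 1 kb steps were the third, with 3.32 sites per kb (2.71 to 4.03), and the second, with 3.42 (2.80 to 4.14). The highest was the 14th, with 9.32 (8.28 to 10.5). Neighbouring steps were uneven, and the 7th step at 7.13 sites per kb stood beside 4.65 in the 6th and 5.43 in the 8th. The outer 10 kb held 1634 sites and the inner 10 kb 2338, a density ratio of 0.701 (0.657 to 0.747). Single ends were divided, as 11 of the 31 had more sites in the outer 10 kb and 19 had fewer. Among the 7 ends with a YRF1 gene of the Y′ element, 1 had more and 6 had fewer. Among the other 24 ends, 10 had more and 13 had fewer. From 20 to 40 kb the density was 6.59 sites per kb, 1.06 times (1.02 to 1.09) that of the whole interior.

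Dextrose sites followed another course, because 122 of the 416 lay in the outermost 1 kb. That step had 3.94 sites per kb (3.27 to 4.70), 5.42 times (4.49 to 6.48) the interior density, and the second step had 0.258 (0.111 to 0.508). With intervals of mapping quality 60 alone, the outermost step had 35 sites, 1.13 per kb (0.786 to 1.57), which was 1.59 times (1.10 to 2.21) the interior density. In galactose it then had 2.97 per kb, 0.478 times (0.385 to 0.586) the interior. From 1 to 20 kb the dextrose density was 0.503 sites per kb, 0.692 times (0.614 to 0.778) that of the interior. In galactose the same stretch had 6.50 sites per kb, 1.04 times (1.01 to 1.08) the interior. The outer 10 kb of dextrose held 247 sites against 169 in the inner 10 kb, a ratio of 1.47 (1.20 to 1.79). With sites within 10 bp merged, the counts were 166 and 165, a ratio of 1.01 (0.808 to 1.26). Without the outermost 300 bp the ratio over all intervals was 0.795 (0.628 to 1.01), a setting chosen after the sites there were seen. Full-length intervals gave 1.66 (1.03 to 2.73) from 77 sites. For 1 to 10 kb against 10 to 20 kb they gave 1.46 (0.877 to 2.46), so their direction without the outermost 1 kb was not settled. Intervals of 50 to 95 bases gave 0.625 (0.464 to 0.837) in that comparison.

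**Figure D1:**
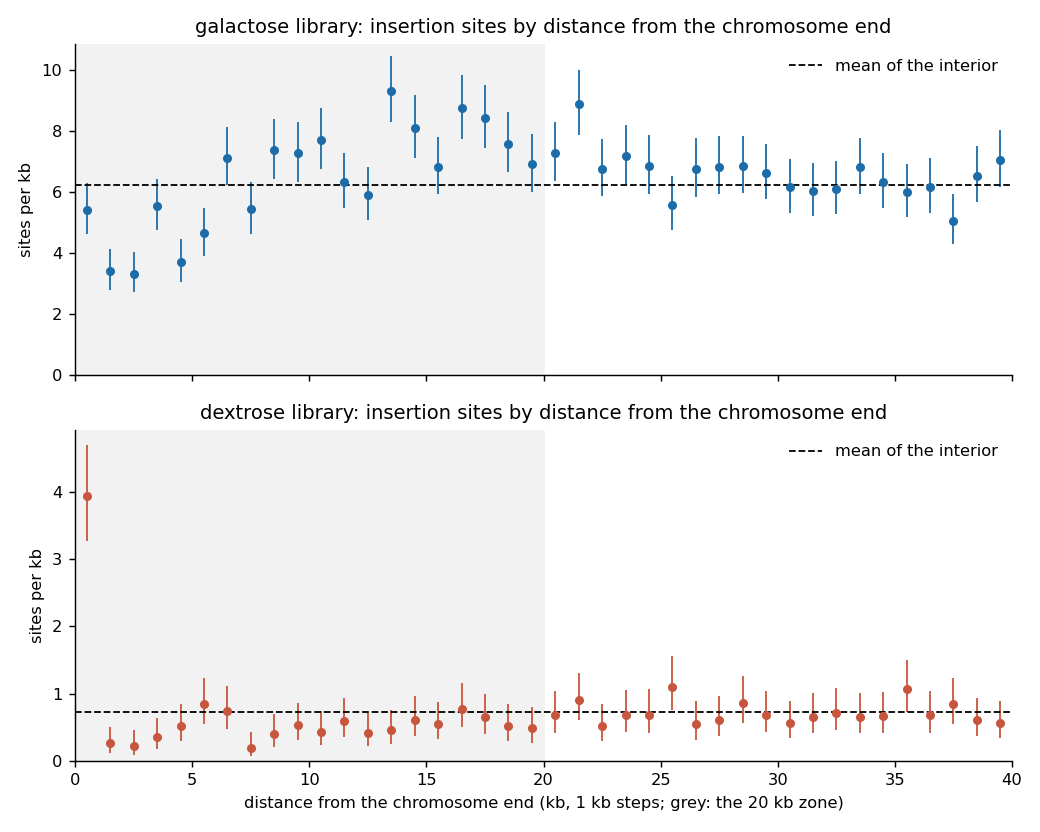
Insertion site density (sites per kb) in 1 kb steps of distance from the chromosome end, over 31 ends, in the galactose library (top) and the dextrose library (bottom). Points are densities, bars exact Poisson 95% intervals, dashed lines the interior mean and grey the 20 kb zone; galactose is lowest between 1 and 3 kb, while the first dextrose step stands at 3.94 sites per kb and the second at 0.258.

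The sites at the very tip were directed. An interval reading away from the end starts near the end and runs into the chromosome. Of the 122 dextrose sites in the outermost 1 kb, 117 lay in the outermost 300 bp, and all 117 of these read away from the end. No dextrose site there read toward the end, and a count of 0 among 117 allows a share of up to 2.56% if the sites are independent. Sites within 10 bp of each other counted separately. With such sites merged, the outer 10 kb of dextrose held 166 sites in place of 247, so the 117 may include clusters of nearby starts. Galactose had 69 sites in the outermost 300 bp, of which 62, or 89.9% (80.2 to 95.8), read away from the end. From 300 bp to 20 kb the share was 50.8% (49.2 to 52.4) of 3903 galactose sites and 53.5% (47.7 to 59.3) of 299 dextrose sites. An interval that reads toward the end must fit between its start and the end, which limits that direction within about 1 read length, 96 bases. Between 100 and 300 bp, 41 of 41 dextrose sites and 36 of 41 galactose sites read away from the end. The cause of the direction was not tested.

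Tip sites were more numerous in the library with fewer sites. Dextrose had 117 of its 11208 nuclear sites in the outermost 300 bp, 1.04% (0.864 to 1.25), and galactose had 69 of 152129, 0.0454% (0.0353 to 0.0574). Both totals include sites near tRNA genes. The interior made up 67.3% of the dextrose total and 42.6% of the galactose total, so the size of the contrast depends partly on this base. The dextrose tip sites fell on 17 of the 31 ends with at most 18 on 1 end, and the galactose tip sites on 15 ends with at most 12. Chromosome XIV right had 18 dextrose sites in its outermost 1 kb, VIII right and XI right had 15 each, III left had 11 and XII left had 10. Galactose had 17, 7, 15, 19 and 1 sites in the same 5 windows. At XIV right, VIII right and XII left the outermost 1 kb thus held more sites in dextrose than in galactose, although the dextrose library had far fewer sites in all; at XIV right the difference was 1 site.

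The intervals at the tip were short and placed with low confidence in both libraries. The median length of the longest interval per site was 72 bases in the dextrose tip and 70 in the galactose tip, against 78 and 94 from 300 bp to 20 kb. Intervals of at most 49 bases made up 31.6% (23.3 to 40.9) of the 117 dextrose tip sites and 2.59% (2.24 to 2.97) of the interior dextrose sites. A mapping quality of 60, the highest given, was reached by 28.2% (20.3 to 37.3) of the dextrose tip sites and by 27.5% (17.5 to 39.6) of the galactose tip sites. From 300 bp to 20 kb it was reached by 79.9% (74.9 to 84.3) and 91.0% (90.1 to 91.9). The part that placement of reads in telomeric repeats plays in the tip sites was not tested.

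**Figure D2:**
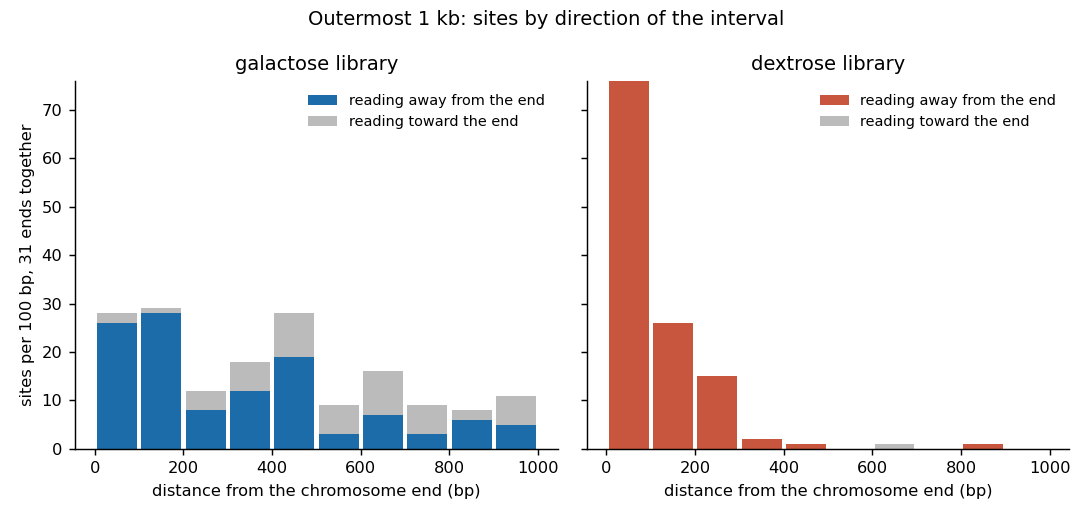
Number of sites per 100 bp in the outermost 1 kb, summed over 31 chromosome ends, in the galactose (left) and dextrose (right) libraries, split by whether the interval reads away from the end (coloured) or toward it (grey). Dextrose sites pile up in the first 100 bp with 76 sites and number 117 in the first 300 bp, all reading away from the end, and galactose sites extend over the whole kilobase, with 62 of 69 reading away from the end in the first 300 bp and both directions beyond.

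Mapping quality below 60 was concentrated near chromosome ends. Counting sites on intervals with a mapping quality under 60, the zone held 410 of 815 galactose sites, 50.3% (46.8 to 53.8), and 145 of 296 dextrose sites, 48.99% (43.2 to 54.8), in 5.60% of the sequence over 2 kb from tRNA genes. The density of such sites was 17.1 times (14.8 to 19.6) that of the interior in galactose and 16.2 times (12.8 to 20.5) in dextrose. With intervals of quality 60 alone, the density of the zone was 0.935 times (0.903 to 0.967) that of the interior in galactose and 0.625 times (0.552 to 0.705) in dextrose. No interval of quality under 30 is in the files, so reads that fit several ends equally well were not counted anywhere.

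The ratio of the zone to the interior differed by the length of the interval, and full-length and 50 to 95 base intervals lay on opposite sides of 1 in both libraries. Counting full-length intervals of 96 bases, the galactose density was 3.14 sites per kb in the zone and 2.09 in the interior, a ratio of 1.50 (1.43 to 1.57). In dextrose it was 0.125 against 0.0831, also a ratio of 1.50 (1.18 to 1.90). This excess lay outside genes, where full-length intervals gave 1.30 (1.23 to 1.37) in galactose and 1.71 (1.28 to 2.25) in dextrose. Inside genes they gave 0.892 (0.808 to 0.982) and 0.600 (0.317 to 1.03), and the zone has a lower share of genes than the interior. Intervals of 50 to 95 bases gave ratios of 0.725 (0.690 to 0.760) and 0.721 (0.637 to 0.813). Those of at most 49 bases gave 1.66 (1.47 to 1.87) in galactose and 5.14 (3.796 to 6.88) in dextrose, and 37 of the 61 short dextrose sites lay in the outermost 1 kb. Full-length intervals of quality 60 gave 1.36 (1.29 to 1.43) in galactose, where 1740 sites remained, and 1.20 (0.905 to 1.55) in dextrose, where 60 remained. Full-length galactose sites stood at 0.981 times (0.875 to 1.10) the interior density from 0 to 5 kb and at 1.65, 1.72 and 1.66 times in the next 3 bands of 5 kb. The share of sites whose longest interval had 50 to 95 bases was 43.8% in the zone and 62.0% in the interior for galactose, and 66.6% and 85.9% for dextrose.

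**Figure D3:**
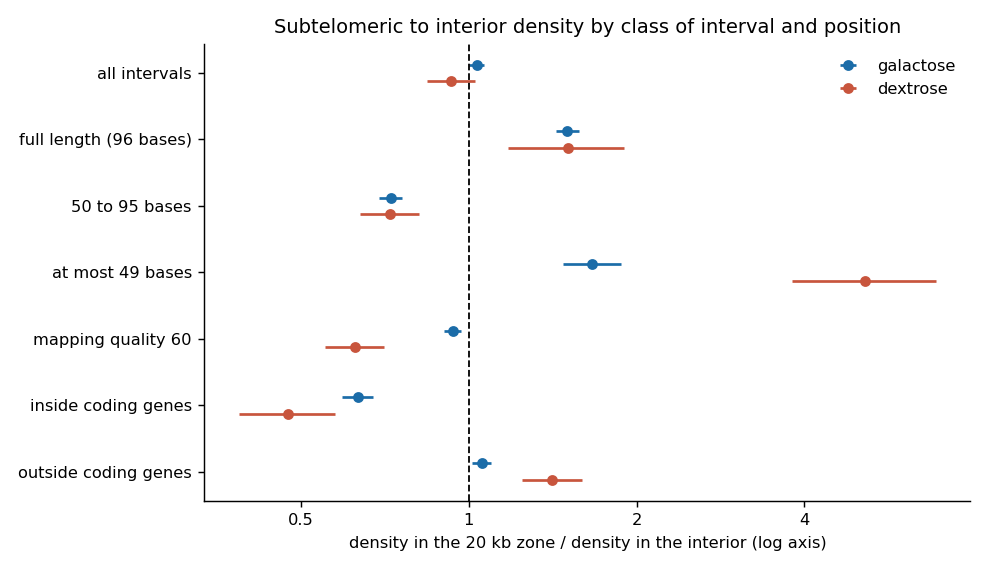
Ratio of the density in the 20 kb zone to that in the interior (log axis) for all intervals, for 3 classes of interval length, for intervals of mapping quality 60, and inside and outside protein-coding genes, with exact 95% counting intervals, in galactose (blue) and dextrose (red). Full-length intervals lie at 1.50 and intervals of 50 to 95 bases at about 0.72 in both libraries, on opposite sides of the dashed line at 1.

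The fall of galactose density toward the end was steep inside protein-coding genes and slight outside them. Outside protein-coding genes the galactose density was 9.01 sites per kb from 0 to 5 kb, 8.47 from 5 to 10 kb, 9.88 from 10 to 15 kb and 10.1 from 15 to 20 kb, beside 8.87 in the interior. Inside protein-coding genes it was 0.837 (0.658 to 1.05), 3.48 (3.04 to 3.97), 4.21 (3.72 to 4.74) and 5.56 (5.07 to 6.10), beside 5.42 in the interior. Genes made up 57.8% of the sequence in the outermost 5 kb and held 11.3% (8.99 to 14.0) of the galactose sites there. The genes of the zone include the 8 YRF1 genes of the Y′ element, with 0 galactose sites in 42.6 kb. Reads from near-identical copies can be lost to the mapping filter, and the part of this in the fall inside genes was not tested. Over the whole zone the ratio to the interior was 0.631 (0.593 to 0.671) inside genes and 1.05 (1.01 to 1.10) outside. The ratio of the outer to the inner 10 kb was 0.392 (0.341 to 0.449) inside genes and 0.870 (0.809 to 0.936) outside. The zone is 49.03% coding and the interior 76.2%. With the zone's densities weighted to the coding share of the interior, the overall galactose ratio was 0.775, a setting chosen after the coding shares were seen.

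Dextrose differed from galactose in the interior, where sites stood at 0.734 per kb inside genes and 0.702 outside, a ratio of 1.05 (0.991 to 1.10), against 0.611 (0.601 to 0.621) in galactose. In the subtelomeric zone the dextrose densities were 0.348 (0.284 to 0.421) inside genes and 0.991 (0.884 to 1.11) outside. The excess outside genes came from the outermost 5 kb, at 2.39 sites per kb (2.03 to 2.79), and the next 3 bands had 0.670, 0.601 and 0.595. Of the 164 dextrose sites in the outermost 5 kb, 117 lay in the outermost 300 bp. From 1 to 5 kb the density inside and outside genes together was 0.339 per kb, 0.466 times (0.336 to 0.631) the interior. From 15 to 20 kb the density inside genes was 0.593 (0.438 to 0.783), level with that outside.

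Empty stretches were common. Of the 615 subtelomeric windows of 1 kb that lay wholly over 2 kb from tRNA genes, 219, or 35.6% (31.8 to 39.5), had no galactose site, beside 6.96% of all 10751 windows in the genome and 5.22% of the 10136 interior windows. The share of empty windows was 56.1% from 0 to 5 kb, 40.8% from 5 to 10 kb, 32.0% from 10 to 15 kb and 13.5% from 15 to 20 kb. At the other extreme, 117 subtelomeric windows, 19.02% (15.996 to 22.4), had at least 2 times the interior mean of 6.25 sites, beside 6.98% of all windows. Windows with at least 1 galactose site had a mean of 10 sites in the zone (396 windows) and 6.50 in the interior (9607 windows). These filled windows were picked by the same counts, so the means describe the windows and test nothing. For dextrose 414 of the 615 windows were empty, 67.3% (63.5 to 71.0), beside 52.4% of all windows, and 86 windows, 14.0% (11.3 to 17.0), had at least 2 times the interior mean of 0.726 sites, beside 17.2% of all windows.

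**Figure D4:**
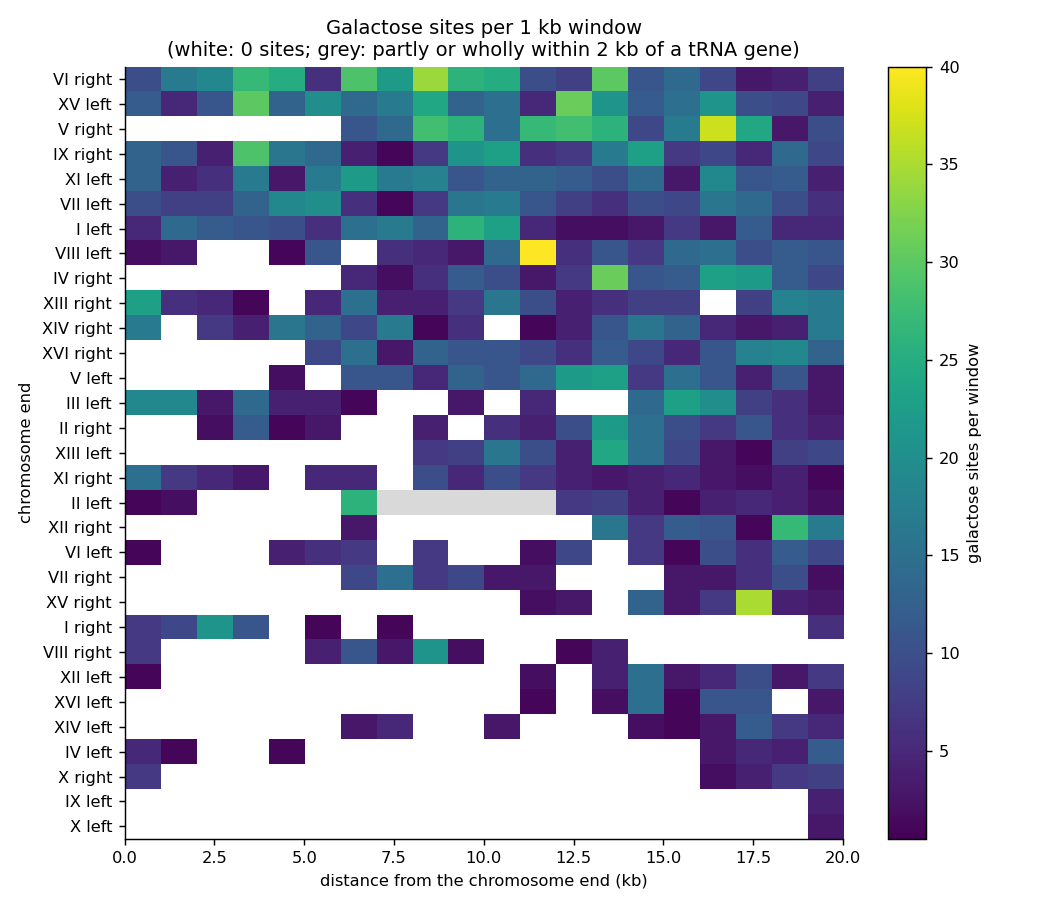
Galactose sites per 1 kb window (colour) by distance from the chromosome end, 1 row for each of 31 ends ordered by density, with windows of 0 sites in white and windows partly or wholly within 2 kb of a tRNA gene in grey. Long white runs fill IX left and X left almost wholly and the outer 6 kb of the ends with a YRF1 gene, while VI right and XV left have sites in every window.

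Of the 10 windows with the most galactose sites, 29 to 40 each, 6 held no coding base and 4 overlapped a gene, while 152 of all 615 windows of the zone, 24.7%, held no coding base. The first was at VIII left (chromosome VIII, 11001 to 12000), with 40 galactose sites (28.6 to 54.5) and 0 dextrose sites, of which 78 bases belonged to PAU13, a seripauperin gene. The next was at V right (chromosome V, 559875 to 560874), with 37 galactose sites and 3 dextrose sites. It covered the 3′ part of PUG1, a plasma membrane protein of porphyrin transport, and sequence downstream of that gene. Then came XV right (chromosome XV, 1073292 to 1074291), with 35 and 1 sites. VI right supplied 3 of the 10 windows and XV left supplied 2. The 5 windows with the most dextrose sites, 10 to 18 each, were all outermost windows. Beyond the outermost 1 kb the highest dextrose window was at VI left (chromosome VI, 4001 to 5000), with 7 sites beside 4 in galactose.

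The interquartile range of density was wider over chromosome ends than over interior stretches of like size, although the highest interior stretch exceeded every end. The galactose density of the 31 ends ran from 0.150 to 16.85 sites per kb, with a median of 5.70. In 505 interior segments of 20 kb with at least 15 kb over 2 kb from tRNA genes, the median was 5.95, the central 90% ran from 4.25 to 8.43 and the full range from 1.47 to 31.9. The quartiles were 2.725 and 8.4 over the ends and 5.15 and 6.8 over the segments. Of the 31 ends, 12 lay below the central 90% of the segments and 8 above it. The dextrose ends ran from 0 to 1.65 sites per kb with a median of 0.600, and 10 lay below and 7 above the central 90% of the interior segments (0.400 to 1.13), whose full range was 0.116 to 4.70. The dextrose quartiles were 0.300 and 0.875 over the ends and 0.565 and 0.850 over the segments. The counting interval of the galactose density lay wholly above the interior mean at 13 ends, wholly below it at 15 and across it at 3.

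VI right had the highest galactose density, 16.85 sites per kb (15.1 to 18.7) from 337 sites. XV left had 15.1 (13.4 to 16.9), V right 13.75 (12.2 to 15.5), IX right 12.0 (10.5 to 13.6) and XI left 11.95 (10.5 to 13.6). Along these 5 ends the counting intervals of neighbours overlapped. The 4 highest ends together held 1154 of the 3972 sites, 29.1%. Without VI right the ratio of the zone to the interior was 0.977 (0.944 to 1.01), and without X left it was 1.07 (1.03 to 1.10). In dextrose VI right was again at the top with 1.65 sites per kb (33 sites), equal to XIV right, where 18 of 33 sites lay in the outermost 1 kb. At the other extreme X left had 0.150 galactose sites per kb (3 sites), IX left 0.200 (4 sites), X right 1.40, IV left 1.55 and XIV left 2.05.

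IX left and X left were empty over almost their whole 20 kb. The first galactose site was 19597 bp from the end at IX left and 19507 bp at X left, and X left had no dextrose site, which allows up to 3 sites or 0.15 per kb. IX left had 2 dextrose sites, both in the outermost 1 kb. The gene table lists genes of equal length at nearly equal distances on both ends, among them PAU14 and PAU1 (0.363 kb), VTH1 and VTH2 (4.65 kb), which encode vacuolar sorting receptor homologues, and IMA3 and IMA4 (1.77 kb), which encode isomaltases. All of these genes had 0 sites in their bodies in both libraries. Reads from sequence in common to both ends cannot be placed on one of them, and the part of this in the empty stretches was not tested.

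Ends with a Y′ helicase gene lacked sites in their outer part. The gene table places the 8 YRF1 genes, which encode the helicase of the Y′ element, at 7 of the 31 ends. At these 7 ends the first galactose site lay 6452 to 11707 bp from the end, and at 18 of the other 24 ends it lay within 1 kb. The pooled galactose density was 5.42 sites per kb (5.04 to 5.82) at the YRF1 ends and 6.75 (6.52 to 6.99) at the others, with medians over ends of 3.50 and 6.58. Of the 7 YRF1 ends, 2 lay above the interior mean, V right at 13.75 sites per kb and IV right at 8.25 (7.04 to 9.61). All of their galactose sites lay beyond 6 kb. In dextrose the pooled densities were 0.329 (0.241 to 0.438) and 0.777 (0.7002 to 0.861), and 1 of the 7 YRF1 ends had a site in the outermost 1 kb, beside 18 of the other 24. The split follows the gene names in the table, and other ends may carry Y′ sequence without a gene of that name.

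**Figure D5:**
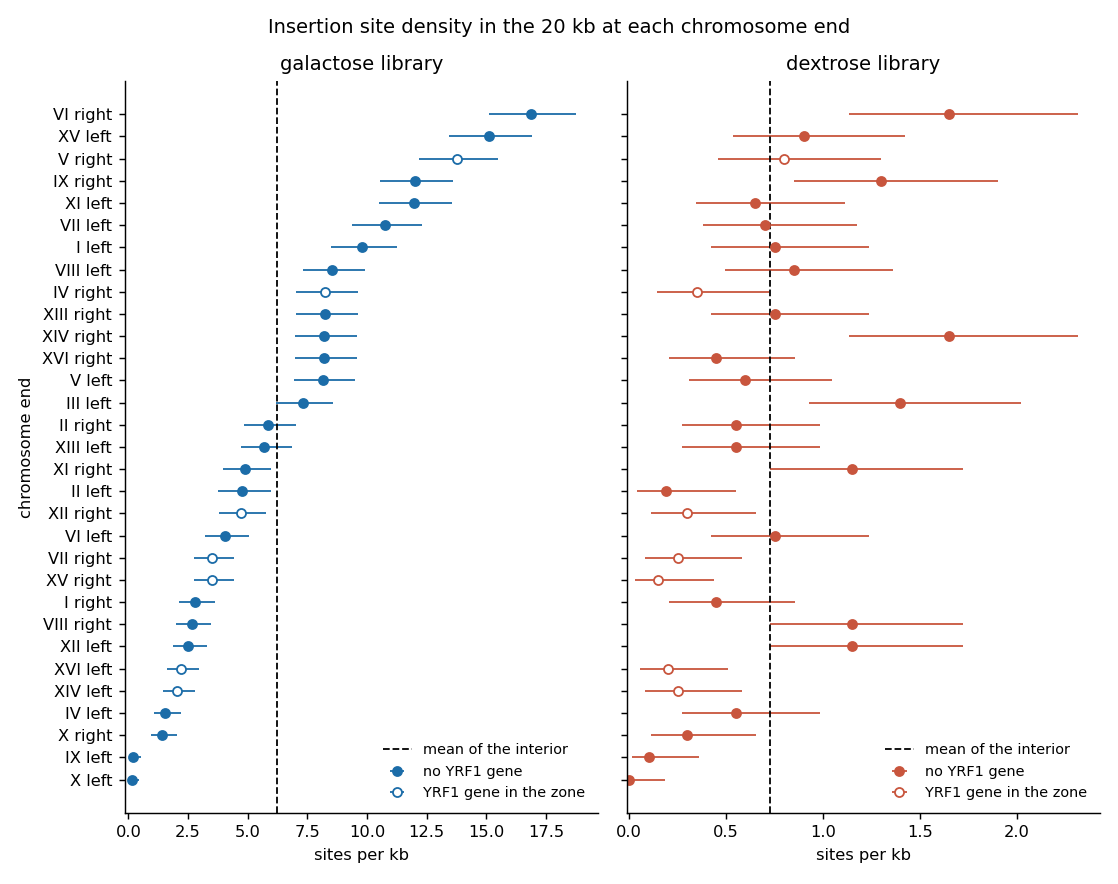
Insertion site density (sites per kb) in the 20 kb at each of 31 chromosome ends, ordered by the galactose value, in the galactose (left) and dextrose (right) libraries, with exact Poisson 95% intervals; open points mark ends with a YRF1 gene and dashed lines the interior mean. Galactose densities fall from 16.85 at VI right to 0.150 at X left, and 28 of the 31 intervals do not cross the dashed line.

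Subtelomeric genes often had no galactose site. Of the 218 protein-coding genes whose bodies lay wholly in the zone and over 2 kb from tRNA genes, 90 had a body with 0 sites, 41.3% (34.7 to 48.1), beside 7.4% of all 5326 such genes of the genome. The median was 2 sites per body in the zone and 6 in the interior, or 2.39 and 5.17 sites per kb of gene. In the 500 bp upstream, 84 of the 218 genes, 38.5% (32.0 to 45.3), had 0 sites, beside 9.33% of all genes. Upstream sequence as a whole had 8.19 sites per kb in the zone and 8.32 in the interior.

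The genes with the most galactose sites in their bodies were ranked by those counts, which are given as a description. BDS1 on XV left (chromosome XV, 6175 to 8115), a sulfatase gene, had 29 galactose sites (19.4 to 41.6) and 1 dextrose site. SEO1 on I left (chromosome I, 7235 to 9016), a putative permease, had 27 and 2. FRE2, an iron reductase, and MCH2, a monocarboxylate permease homologue, lie near each other on XI left and had 25 and 24 galactose sites with 3 dextrose sites each. CHA1 on III left (chromosome III, 15798 to 16880), the serine and threonine deaminase, had 22 and 3, which at 20.3 galactose sites per kb was the highest density among the leading genes. The other leaders were PDR18, an ABC transporter, with 24 and 4 sites, NFT1, also an ABC transporter, with 22 and 4, FET4, the low-affinity iron transporter, with 21 and 1, PHO89, a phosphate transporter, with 19 and 0, HXK1, a hexokinase, with 18 and 3, and PUG1 with 18 and 1. The most galactose sites in the 500 bp upstream were found at PUG1 and YOR389W, with 22 each, IRC4, with 21, and YKL222C and MCH2, with 20 each. The upstream sequence of YOR389W lies within the dense window of XV right. YKL222C and MCH2 are divergent neighbours on XI left. Their upstream windows largely overlap, so their counts are not of separate sites.

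In dextrose no gene body in the zone had more than 4 sites. The 4-site bodies were those of IRC7, a cysteine-degrading enzyme, NFT1, YMR317W and PDR18. A further 7 genes had 3 sites, among them RET2, a subunit of the COPI coat, VAC17, the vacuole receptor of myosin, and PAU20, a seripauperin. In all, 57 of the 218 genes, 26.1% (20.4 to 32.5), had a dextrose site in the body, beside 55.1% of all 5326 genes.

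The gene families typical of subtelomeres were counted next, beside 3.26 galactose sites per kb (3.06 to 3.48) over all 218 gene bodies of the zone. The 8 YRF1 genes had 0 sites in 42.6 kb in either library, which in galactose allows up to 3 sites or 0.0705 per kb, and 0 sites in the 500 bp upstream. HMLALPHA1 and HMLALPHA2 (chromosome III, 12386 to 13809), the silent mating-type genes, had 0 sites in 1.16 kb, which allows 2.58 per kb, and 0 upstream. The R64 gene table holds MATALPHA1 and MATALPHA2 at the active mating-type locus with the same lengths, 528 and 633 bp, so reads from these genes may not be placed on HML. The part of read placement in the zeros of both families was not tested.

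Seripauperins, cell wall mannoproteins of low-oxygen growth, had fewer sites per kb in the body than upstream, as did the 218 zone genes together, at 3.26 and 8.19 per kb. The 17 members in the zone had 11 galactose sites in their short bodies, 1.70 per kb (0.849 to 3.04), with 12 of 17 bodies empty, beside 41.3% of all zone genes. In their 500 bp upstream they had 64 sites, 7.53 per kb, with 5 of 17 empty, beside 38.5% of all zone genes. PAU20 on XV left had the most upstream, 15 sites, followed by PAU4 with 9. COS genes, which encode membrane proteins of endosomal sorting, had 36 body sites in 11 members, 2.85 per kb (1.99 to 3.94), of which COS12 on VII left had 14 and COS9 on XI left had 8, and 40 sites upstream. The 12 genes of sugar use, namely MAL, IMA, MPH and HXT genes, had 13 body sites in 20.9 kb, 0.622 per kb (0.331 to 1.06), and 9 of the 12 bodies were empty, the exceptions being MAL11 with 6 sites, MAL33 with 5 and MAL31 with 2.

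The remaining lists were small. The arsenic resistance cluster on XVI right had sites in every body, 11 in ARR1, the transcription factor, 6 in ARR2, the arsenate reductase, and 5 in ARR3, the arsenite transporter, which is 8.82 per kb (5.53 to 13.4). The iron uptake genes FRE2 and ARN2, a siderophore transporter, had 25 and 7, or 8.00 per kb (5.47 to 11.3). IMD2, an IMP dehydrogenase on VIII right, had 7 in the body and 10 upstream. The 8 vitamin genes of the THI, SNO and SNZ families had 11 sites, 1.52 per kb (0.760 to 2.72), and 4 aryl-alcohol dehydrogenase genes had 14, 4.09 per kb (2.24 to 6.87). PHO12, an acid phosphatase, had 2 sites and its near-identical copy PHO11 had 0. None of the 5 listed flocculin genes lay wholly in the zone. Genes with near copies elsewhere can lose reads to the mapping filter, so counts of such families are uncertain.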

How the data were processed

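Ty1 insertion sites were measured in 2 libraries, 1 from galactose and 1 from dextrose. Per the submitters' processing notes, reads were handled with BWA 0.7.19, Picard 3.4.0, Trimmomatic 0.39, bedtools 2.31.1 and SAMtools 1.22, whose settings are not stated there. The deposited files list aligned intervals and, as a score, the mapping quality of each (30 to 60), without normalization. They held 170698 intervals in galactose and 11577 in dextrose, of which 300 and 46 were mitochondrial and not used. The depth of sequencing is not known from these files.

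Sites were counted on the 16 nuclear chromosomes with the lengths of build R64, which no interval exceeded. The left-out right end of chromosome III starts outside the 20 kb zone and was also left out of the interior. Density was sites per kb of sequence over 2 kb from tRNA genes of the RefSeq R64 table. Gene strand was read from the systematic name. Ratios carry exact conditional binomial 95% intervals, counts exact Poisson and shares exact Clopper-Pearson intervals. A count of 0 was read as at most 3. Unless stated otherwise, a site took the length and quality of its longest interval, whereas densities by class used sites rebuilt from the intervals of that class. Named genes were the 10 with the most galactose sites in the body, the 5 with the most upstream, the 5 with the most dextrose sites, ties included, and the members of 12 lists. Of the 123 list members, 120 were found in the table. Windows were named by the same kind of ranking. Members, lists and rules were chosen with earlier results of these data known. The density calculation was checked on simulated data. Python 3.11.15, numpy 2.4.6, pandas 2.3.3 and scipy 1.17.1 were used.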

Additional observations from a re-analysis of the deposited data

How the results depend on the processing

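The ratio of the zone to the interior in galactose, 1.03, became 0.933 with intervals in place of sites, 0.541 with at least 2 intervals per site, 0.910 with the 3′ end, 1.50 with intervals of 96 bases, 0.725 with those of 50 to 95, 1.66 with those of at most 49, 0.935 with mapping quality 60, 0.958 over 1 kb from tRNA genes, 1.07 without the outermost 2 kb, 0.631 inside genes, 0.845 with a zone of 10 kb and 0.775 weighted to the interior's coding share. Leaving out each chromosome end gave 0.977 to 1.07. In dextrose the 0.930 became 1.10 with at least 2 intervals, 0.774 with sites within 10 bp merged, 1.50, 0.721 and 5.14 for the length classes, 0.625 with quality 60, 0.711 and 0.679 without the outermost 2 kb and 300 bp, 1.41 outside and 0.474 inside genes, 1.24 for sites of 1 library only, 1.11 with a zone of 10 kb and 0.690 when weighted. Leaving out single ends gave 0.885 to 0.961.

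The outer to inner ratio in galactose, 0.701, stayed below 1 in the alternatives listed here, but was 1.67 (1.36 to 2.05) for intervals of quality under 60 alone. It moved to 0.585 with at least 2 intervals, 0.777, 0.596 and 0.938 for the length classes, 0.635 with quality 60, 0.754 over 1 kb from tRNA genes, 0.870 outside and 0.392 inside genes, and 0.642 to 0.734 without single ends. In dextrose the 1.47 became 2.00 with at least 2 intervals (18 sites), 1.01 with merging, 1.10 and 5.79 for intervals of 50 to 95 and at most 49 bases, 2.34 outside genes and 1.97 for sites of 1 library only. It reversed to 0.866 with quality 60, 0.869 without the outermost 2 kb, 0.420 inside genes and 0.795 without the outermost 300 bp, and the cause was not tested. Intervals of 96 bases, with 10 sites in the outermost 1 kb, gave 1.66. Single ends gave 1.33 to 1.56. The ribosomal DNA and the 5 kb distance from tRNA genes moved none of the 4 ratios beyond its interval. No paired analysis was possible because each medium had 1 library. Counts in dextrose are small, and neither mappability nor MseI sites could be taken into account without a genome sequence.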

Other observations

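A smaller share of dextrose sites was also found in galactose in the subtelomeres than in the interior. The share that unrelated positions would give was not computed, so these values do not show how separate the libraries are. Of the 416 dextrose sites in the zone, 128, or 30.8% (26.4 to 35.5), were found at the same position and strand in galactose, beside 3631 of 7541 in the interior, 48.2% (47.0 to 49.3). In the outermost 300 bp the shared sites were 15 of 117, 12.8% (7.36 to 20.3), and from 1 to 20 kb they were 112 of 294, 38.1% (32.5 to 43.9). Across the 31 ends the numbers of sites from 1 to 20 kb in the libraries had a Pearson correlation of 0.763, and over the full 20 kb it was 0.559. The ends share annotation, mappability and the run, so both values are descriptions.

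XV right and XVI left carry a run of related genes, among them YRF1-8 and YRF1-7, PAU21 and PAU22, ERR1 and ERR2, which encode enolase-related proteins, and FEX1 and FEX2, which encode fluoride exporters. YRF1, PAU and ERR members had 0 galactose sites on both ends. The upstream 500 bp of FEX1 and FEX2 had 13 and 14 galactose sites. At these ends 67.1% and 56.8% of the galactose sites had a mapping quality of 60, beside 89.9% over the zone.

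Sites with more than 1 interval were less common in the zone, with 331 of 3972 galactose sites, 8.33% (7.49 to 9.24), beside 10323 of 64863 in the interior, 15.9% (15.6 to 16.2). In dextrose the shares were 4.33% (2.58 to 6.75) and 3.66% (3.25 to 4.11).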
